A study of Mus musculus with 21 samples.

Results

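The genes of the MHC class II presentation pathway were followed through the sorted cells of a mouse model of juvenile myelomonocytic leukemia. The 10 genes were chosen by name, as the rows of the count tables whose Ensembl identifier carries the symbol H2-Aa, H2-Ab1, H2-Eb1, Cd74, Ciita, H2-DMa, H2-DMb1, H2-DMb2, H2-Oa or H2-Ob. All 10 were found among 45706 genes, all 10 passed the filter on low counts, and none had a count of 0 in a library. RNA had been sequenced from bone marrow (BM) LSK cells, the lineage-negative Sca1+ cKit+ stem and progenitor cells, and from myeloid cells carrying CD11b that were taken from BM or spleen. The 21 libraries form 9 groups, since each of the 3 fractions was sequenced from MxCre mice (2 libraries), Ptpn11D61Y/+ mice (2) and S3 MxCre;Ptpn11D61Y/+ mice (3). MxCre mice carry a Cre recombinase under the interferon-inducible Mx1 promoter and served as controls. The Ptpn11D61Y/+ mice had no Cre, so their D61Y allele of the phosphatase gene Ptpn11 stayed behind its stop cassette. The study likens these controls to a heterozygous knock-out, with a single functional Ptpn11 allele. S3 mice carried both the Cre and the D61Y allele, and had reached the terminal stage of the disease. The study describes injections of poly I:C, which induces interferon and so the Mx1 promoter, whereas the labels state no treatment of the isolated cells. CD11b+ cells were collected on magnetic columns and LSK cells by lineage depletion and cell sorting. In the S3 group, the labels give the animal numbers 540 and 815 to all 3 fractions, 640 to the CD11b+ ones and 768 to LSK cells only. The MxCre and Ptpn11D61Y/+ libraries are numbered 1 and 2. For the CD11b+ cells of S3 and MxCre mice the study's methods give 3 mice per genotype, whereas MxCre has 2 libraries per fraction here. No source used here ties each library numbered 1 or 2 to a separate mouse. The p-values there may therefore measure only the spread between libraries.

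MHC class II molecules show peptides from ingested material to CD4+ T cells. An alpha and a beta chain form the molecule in the endoplasmic reticulum, where the invariant chain Cd74 fills the peptide groove. Proteases then cut Cd74 down to a short fragment in the endosome, the DM heterodimer exchanges that fragment for a peptide, and the DO heterodimer restrains DM. Ciita is the transactivator on which the transcription of the whole family depends. Ciita does not bind DNA itself but joins RFX, CREB and NF-Y proteins on a shared promoter module. Dendritic cells, B cells and activated macrophages are the classical class II cells, neutrophils carry little, and the human form of this leukemia starts in stem or progenitor cells and yields an excess of monocytic and granulocytic cells.

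Letters of this module were looked for in the promoters of the family. RefSeq windows (GRCm38.p6) of 250 bases before and 50 bases after the start of transcription were used for 7 of the 10 genes, all on chromosome 17, and those of H2-Ab1, Cd74 and Ciita were not used here. The letters CCAAT, the core that NF-Y binds, occurred on either strand in a window of 7 of these 7 genes and in 37.4% of 32851 windows of all genes. ACAGATG, on either strand, occurred in the windows of H2-Aa and H2-Oa and in 5.01% of all windows. A pair of further patterns was chosen after the windows had been read. TGATTGG, which holds CCAAT in inverted form, stood on the strand of the gene in 6 of the 7 genes, between 45 and 92 bases before the start, and in 4.01% of all windows on the strand of the gene. AACNNATGA, with N for any base, stood upstream of it in 4 genes, H2-Eb1, H2-DMb1, H2-DMb2 and H2-Ob, and in 1.45% of all windows on the strand of the gene. A match of letters is a description and not a site of binding. The 130 bases before the start are shown for these 6 genes because TGATTGG occurs in each of them, each 5′ to 3′ on the strand of the gene, with the matches of TGATTGG and AACNNATGA in capitals. They are chr17:34287824-34287953 on the minus strand for H2-Aa and, on the plus strand, chr17:34305737-34305866 for H2-Eb1, chr17:34153061-34153190 for H2-DMb1, chr17:34145119-34145248 for H2-DMb2, chr17:34092249-34092378 for H2-Oa and chr17:34238775-34238904 for H2-Ob.
H2-Aa: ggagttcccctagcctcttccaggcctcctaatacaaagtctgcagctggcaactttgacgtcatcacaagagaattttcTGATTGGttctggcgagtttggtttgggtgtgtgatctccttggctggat
H2-Eb1: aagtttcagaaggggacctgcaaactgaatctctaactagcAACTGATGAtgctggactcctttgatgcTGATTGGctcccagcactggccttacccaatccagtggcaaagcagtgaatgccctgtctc
H2-DMb1: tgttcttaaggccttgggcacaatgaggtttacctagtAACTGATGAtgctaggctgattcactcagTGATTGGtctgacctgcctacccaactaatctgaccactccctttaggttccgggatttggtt
H2-DMb2: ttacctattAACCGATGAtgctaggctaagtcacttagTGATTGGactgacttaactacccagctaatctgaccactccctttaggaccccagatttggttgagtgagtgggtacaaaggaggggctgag
H2-Oa: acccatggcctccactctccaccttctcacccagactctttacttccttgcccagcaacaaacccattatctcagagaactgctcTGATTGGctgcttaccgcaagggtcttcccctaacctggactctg
H2-Ob: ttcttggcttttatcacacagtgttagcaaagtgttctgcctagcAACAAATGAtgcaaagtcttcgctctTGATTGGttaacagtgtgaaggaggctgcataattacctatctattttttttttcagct

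Total counts ran from 34992610 in the BM CD11b+ library of S3 animal 815 to 104509425 in LSK Ptpn11D61Y/+ replicate 1, and the lowest count of a member was 21, for H2-Oa in BM MxCre replicate 1. The 10 genes together held between 0.0994% of all counts, in LSK Ptpn11D61Y/+ replicate 1, and 3.59%, in spleen Ptpn11D61Y/+ replicate 2. Several libraries stood apart. BM MxCre replicate 2 and both CD11b+ libraries of S3 animal 540 held at least 100 counts of both Xist, a transcript of female cells, and Ddx3y, a gene of the Y chromosome. The LSK library of animal 540 had 1 count of Xist and 5083 of Ddx3y, while its BM library had 2780 and 173. The spleen library of Ptpn11D61Y/+ replicate 1 had 4753 counts of Xist, and the BM and LSK libraries of that number had 1 and 17. Replicate numbers, and the number 540, therefore cannot be taken to follow one mouse through the fractions. The spleen library of animal 640 was the lowest of its group in each of the 10 genes, and it is given apart wherever it bears on a value.

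The markers by which the cells were sorted followed the labels in part. Kit lay between 287.8 and 532.6 CPM in LSK cells and between 4.78 and 73.2 CPM in the CD11b+ libraries, where CPM is the count scaled to the TMM-adjusted library size. Itgam, which encodes CD11b, was between 150.7 and 1664.6 CPM in the CD11b+ libraries and between 31.6 and 114.2 CPM in LSK cells. Ly6a, which encodes Sca1, did not separate the fractions, with 42.5 to 76.1 CPM in LSK cells and 3.18 to 313.2 CPM in CD11b+ cells. Ptpn11 itself, which the labels vary only in allele, was at 110.6 and 116.0 CPM in the LSK libraries of MxCre mice, at 64.1 and 60.5 CPM in those of Ptpn11D61Y/+ mice and at 153.0, 151.7 and 139.6 CPM in S3 mice. These groups did not overlap, and neither Ptpn11D61Y/+ against MxCre (log2 fold change -0.86 ± 0.58) nor S3 against MxCre (0.39 ± 0.53, SE) passed edgeR's quasi-likelihood test, with an adjusted p of 1 for both. In BM CD11b+ cells Ptpn11 was at 22.05 and 42.8 CPM in MxCre, 46.0 and 55.0 CPM in Ptpn11D61Y/+ and 62.7, 118.6 and 26.3 CPM in S3 animals 540, 640 and 815. In the spleen it was at 14.6 and 38.2, 62.3 and 35.3, and 91.9, 140.2 and 59.8 CPM. The value of Ptpn11D61Y/+ against MxCre was thus positive in both CD11b+ fractions, at 0.64 ± 0.58 in the BM (adjusted p = 0.493) and 0.89 ± 0.58 in the spleen (0.351), as was that of S3 against MxCre, at 1.09 ± 0.55 (0.344) and 1.88 ± 0.56 (0.0665), and none was called.

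Cd74 was the most abundant of the 10 genes per length in 21 of 21 libraries. Counts per length are RPKM here, the CPM divided by the summed exon length in kilobases, and Cd74 made up between 46.4% and 64.7% of the summed RPKM of the family. In LSK cells Cd74 was at 506.7 and 496.0 CPM in MxCre, 276.5 and 468.8 CPM in Ptpn11D61Y/+ and 689.0, 495.2 and 1031 CPM in S3 animals 540, 768 and 815. The BM CD11b+ libraries had 3753 and 1269 CPM in MxCre, 2774 and 2459 CPM in Ptpn11D61Y/+ and 1397, 2426 and 1827 CPM in animals 540, 640 and 815. Spleen CD11b+ cells held the highest levels, 8694 and 4886 CPM in MxCre, 9859 and 15897 CPM in Ptpn11D61Y/+, and 9417, 1702 and 17610 CPM in the same 3 animals. Every CD11b+ library was thus above every LSK library for Cd74, and the spleen libraries were above the BM libraries except for the spleen library of animal 640. By group means of log2 CPM the order was LSK Ptpn11D61Y/+ (8.49 ± 0.54, SD), LSK MxCre (8.97 ± 0.02), LSK S3 (9.46 ± 0.53), BM S3 (10.84 ± 0.40), BM MxCre (11.09 ± 1.11), BM Ptpn11D61Y/+ (11.35 ± 0.12), spleen MxCre (12.67 ± 0.59), spleen S3 (12.68 ± 1.75) and spleen Ptpn11D61Y/+ (13.61 ± 0.49). Neighbours of the same fraction in this order differed by less than the larger of their SDs, and the steps from LSK S3 to BM S3 and from BM Ptpn11D61Y/+ to spleen MxCre exceeded both SDs. Cd74 lies at position 60803848 to 60812652 of chromosome 18 (GRCm38), and its exons overlap Mir5107 on the same strand.

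The chains that bind peptide were also highest in the spleen. H2-Aa, the alpha chain of I-A, was at 173.8 and 196.7 CPM in LSK cells of MxCre mice, 86.7 and 146.2 CPM in Ptpn11D61Y/+ and 344.0, 242.8 and 475.9 CPM in S3 animals 540, 768 and 815. In BM CD11b+ cells it was at 845.6 and 249.7, 823.8 and 858.2, and 403.6, 1077 and 401.7 CPM in the same order of genotypes, with animal 640 in place of 768. In the spleen it reached 2524 and 1266 CPM in MxCre, 3535 and 5903 CPM in Ptpn11D61Y/+ and 3610, 777.9 and 5848 CPM in S3. The spleen library of animal 640 lay below its BM library, and the other 6 spleen libraries lay above all 7 BM libraries. H2-Ab1, the beta chain of I-A, ranged from 95.4 to 548.4 CPM in LSK cells (median 243.0), from 389.5 to 1469 CPM in the BM (median 876.5) and from 687.1 to 8071 CPM in the spleen (median 3459). H2-Eb1, the beta chain of I-E, ranged from 59.3 to 392.2 CPM (median 174.0), from 160.4 to 835.6 CPM (median 595.1) and from 663.0 to 5695 CPM (median 3272). Per length, the medians over the 21 libraries were 204.8 RPKM for H2-Aa, 308.4 RPKM for H2-Ab1 and 306.1 RPKM for H2-Eb1, against 1088 RPKM for Cd74. These chain genes lie at 34257689 to 34316674 of chromosome 17 in the order H2-Ab1, H2-Aa and H2-Eb1, and no exon of another gene overlaps theirs. The partner chain of H2-Eb1 appears in the annotation as the pseudogene H2-Ea-ps, which had at most 18 counts in a library, and the further beta chain H2-Eb2 was at most at 74.4 CPM, in spleen Ptpn11D61Y/+ replicate 1.

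**Figure D1:**
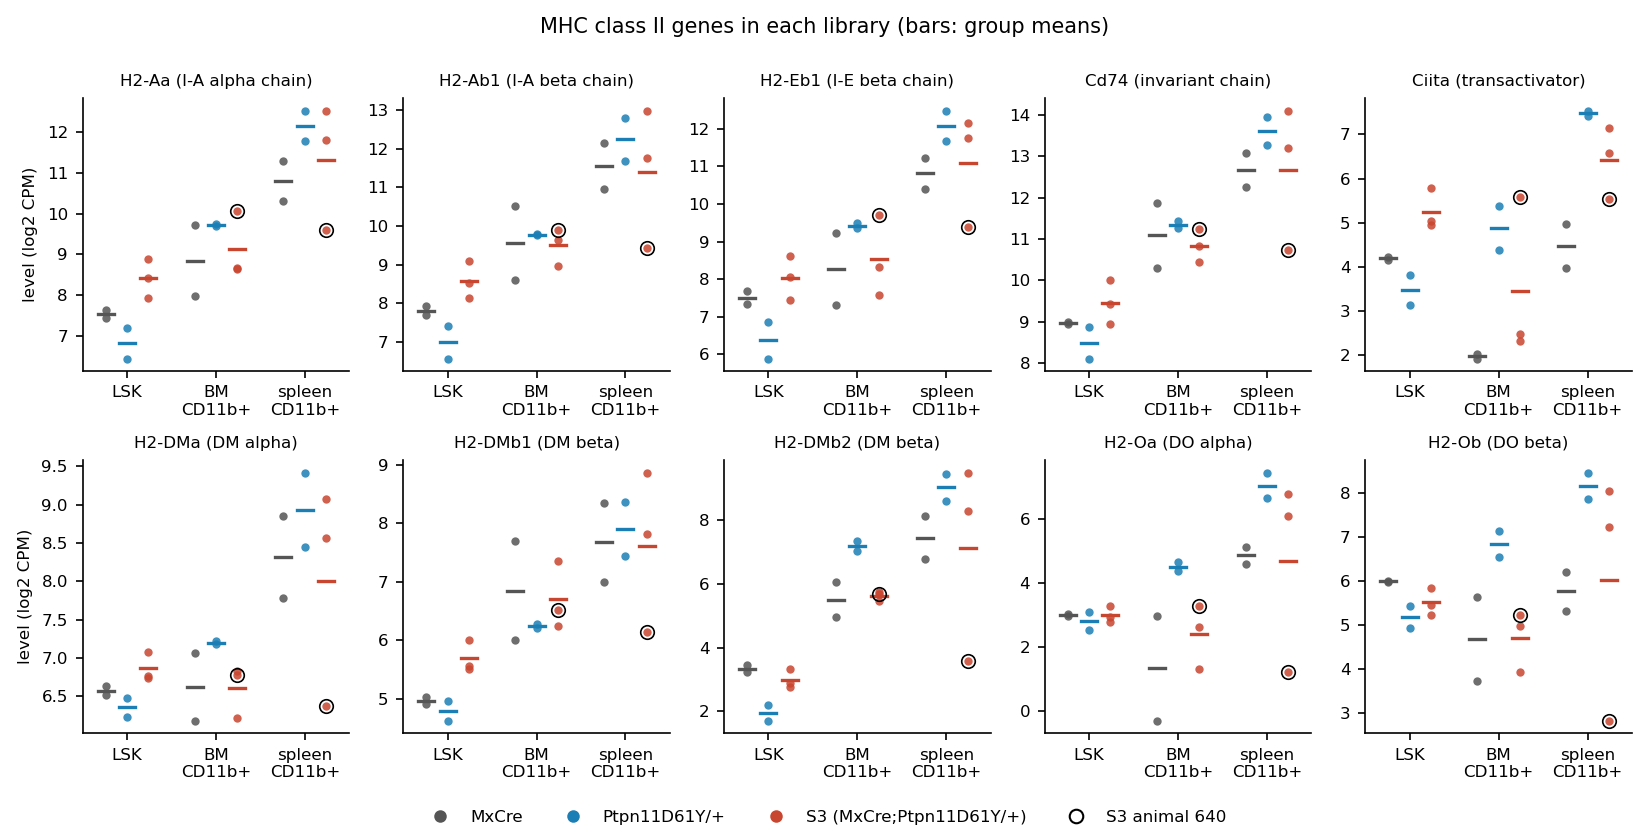
Level of each of the 10 class II genes (y axis, log2 CPM) in the LSK, BM CD11b+ and spleen CD11b+ libraries (x axis), with 1 point per library, colours for the genotypes, bars for group means and rings for the 2 libraries of S3 animal 640. For Cd74 the LSK libraries lie between 276.5 and 1031 CPM and 6 of 7 spleen libraries between 4886 and 17610 CPM, with the ringed spleen library at 1702 CPM.

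The chaperone genes were less abundant per length, with medians over the 21 libraries of 32.9 RPKM for H2-DMa, 45.2 RPKM for H2-DMb1 and 29.3 RPKM for H2-DMb2. H2-DMa, the alpha chain of DM, stayed between 74.8 and 135.5 CPM in LSK cells and between 72.5 and 149.5 CPM in the BM, so these fractions overlapped, and it was between 83.0 and 683.4 CPM in the spleen. The beta chain of DM has 2 genes in the mouse, which are near-identical copies, so reads that fit both could have been split or dropped and the values of each are uncertain to that extent. H2-DMb1 ranged from 24.8 to 64.3 CPM in LSK cells, from 64.3 to 206.9 CPM in the BM and from 70.7 to 466.3 CPM in the spleen. H2-DMb2 differed most between LSK cells and the spleen. In LSK cells it was at 10.9 and 9.39 CPM in MxCre, 3.23 and 4.51 CPM in Ptpn11D61Y/+ and 6.74, 7.29 and 10.1 CPM in S3. In BM CD11b+ cells it was at 31.1 and 66.2 CPM in MxCre, 132.5 and 162.9 CPM in Ptpn11D61Y/+ and 53.4, 51.2 and 43.9 CPM in S3, and in the spleen it was at 280.5 and 109.0, 388.2 and 707.6, and 311.9, 11.9 and 720.7 CPM. The 11.9 CPM belong to animal 640, whose spleen library lay just above the highest LSK library. The ratio of H2-DMb2 to H2-DMb1 per length was between 0.126 and 0.345 in the 7 LSK libraries. In the BM it was 0.145 and 0.990 in MxCre, 1.64 and 2.11 in Ptpn11D61Y/+ and 0.676, 0.539 and 0.258 in S3 animals 540, 640 and 815, and in the spleen it was 0.825 and 0.816, 2.13 and 2.06, and 1.32, 0.162 and 1.49. BM MxCre replicate 1, the BM library of animal 815 and the spleen library of animal 640 thus lay within the LSK range.

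H2-Oa and H2-Ob, the chains of DO, were near the bottom of the family. H2-Oa was between 5.76 and 9.74 CPM in LSK cells, between 0.783 and 25.0 CPM in the BM and between 2.27 and 173.4 CPM in the spleen. H2-Ob was at 64.1 and 62.9 CPM in LSK cells of MxCre mice, 30.4 and 43.2 CPM in Ptpn11D61Y/+ and 44.0, 37.6 and 57.2 CPM in S3. In the BM it was at 13.2 and 49.3, 93.9 and 140.8, and 31.3, 37.5 and 15.03 CPM, and in the spleen at 73.9 and 40.0, 234.8 and 353.6, and 150.9, 7.01 and 264.2 CPM. So, unlike Cd74, H2-Ob in the LSK libraries lay within the range of both CD11b+ fractions. The exons of H2-Oa overlap BC051537 on the other strand and those of H2-DMa overlap Brd2. The study names a stranded kit, and the use of strand in counting is not given in the sources used here, so these overlaps could add reads.

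Ciita had the lowest RPKM of the 10 genes in 19 of 21 libraries, and its order of groups was its own. In LSK cells it was at 17.9 and 18.7 CPM in MxCre, 8.76 and 14.1 CPM in Ptpn11D61Y/+ and 32.8, 30.7 and 55.0 CPM in S3 animals 540, 768 and 815. In BM CD11b+ cells it was at 4.07 and 3.76 CPM in MxCre, 20.7 and 41.7 CPM in Ptpn11D61Y/+ and 5.52, 48.1 and 4.93 CPM in S3 animals 540, 640 and 815. In spleen CD11b+ cells it was at 31.2 and 15.7 CPM in MxCre, 185.8 and 170.9 CPM in Ptpn11D61Y/+ and 140.9, 46.3 and 96.0 CPM in S3. The S3 BM libraries thus fell far apart, with animal 640 near the Ptpn11D61Y/+ libraries and the others near MxCre, and in the spleen the MxCre libraries lay below all others. Set against Cd74 in CPM, without division by length, Ciita was at 30.0 to 62.0 per 1000 of Cd74 in LSK cells. This ratio was 1.08 to 19.8 in the BM and 3.21 to 27.2 in the spleen. LSK cells thus had the most transactivator reads for their invariant chain reads. Ciita lies at 10480059 to 10528418 of chromosome 16, and its exons overlap Dexi on the other strand.

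**Figure D2:**
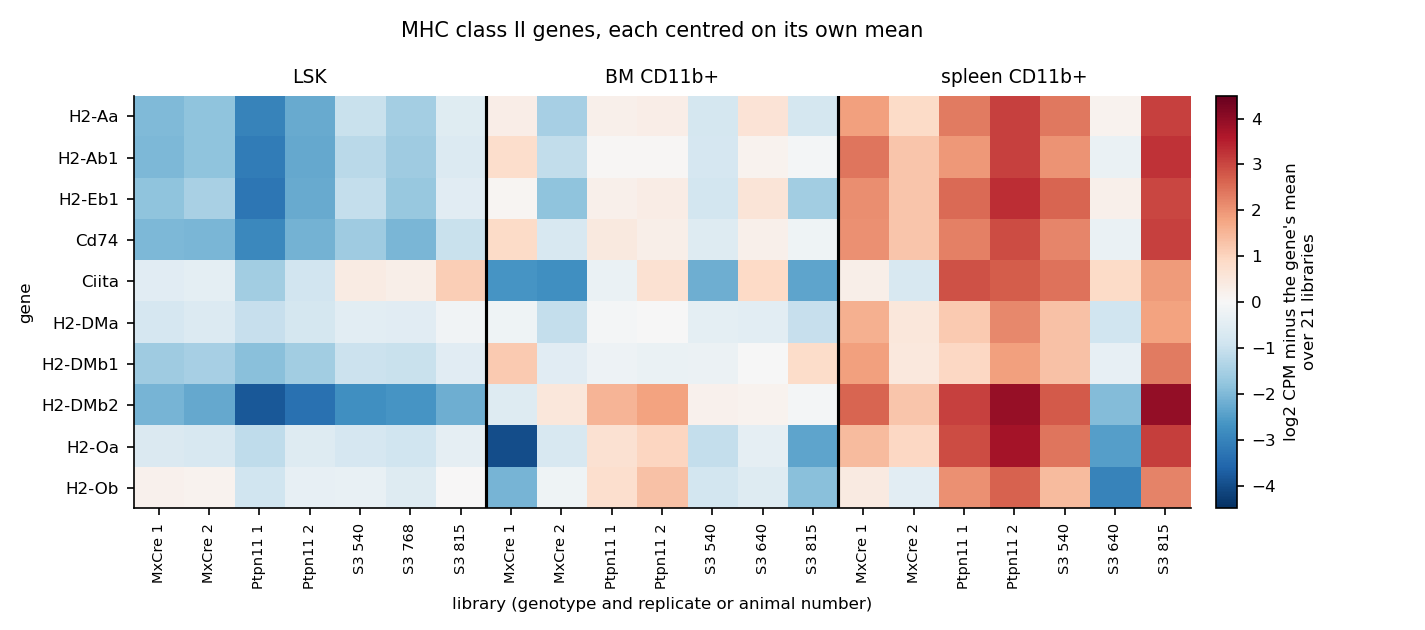
Heat map of the 10 class II genes (rows) in the 21 libraries (columns, by fraction, with Ptpn11 standing for Ptpn11D61Y/+), in log2 CPM minus the mean of each gene over all libraries. H2-DMb2 shows the widest contrast between LSK and spleen libraries, and the column of spleen S3 animal 640 is below both other S3 spleen columns in every row.

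The comparison of fractions within a genotype asks how the mature and the stem cell compartments differ. Spleen CD11b+ cells had higher class II RNA than LSK cells in each genotype, with 7 of the 10 genes called higher in MxCre, 10 in Ptpn11D61Y/+ and 8 in S3, at an adjusted p under 0.05 over all 19555 genes tested. Of all genes, 19.2%, 10.4% and 15.8% were called higher in these comparisons. Cd74 rose 13.5-fold in MxCre (log2 fold change 3.76 ± 0.84, SE, adjusted p = 0.00317), 34.6-fold in Ptpn11D61Y/+ (5.11 ± 0.89, 0.00143) and 13-fold in S3 (3.70 ± 0.68, 0.00125). H2-DMb2 rose the most of the called members in each genotype, by 4.26 ± 1.08, 7.15 ± 1.24 and 5.44 ± 0.93 on the log2 scale. H2-Aa, H2-Ab1 and H2-Eb1 rose by 3.35, 3.86 and 3.35 in MxCre, by 5.34, 5.28 and 5.67 in Ptpn11D61Y/+ and by 3.27, 3.35 and 3.37 in S3. H2-DMa rose less, by 1.84 ± 0.62, 2.65 ± 0.64 and 1.51 ± 0.50, and H2-DMb1 rose by 2.86, 3.17 and 2.28. Ciita passed in Ptpn11D61Y/+ only (3.96 ± 0.92, adjusted p = 0.00841), and its values in MxCre (0.36) and S3 (1.26) did not pass. H2-Oa passed in Ptpn11D61Y/+ (4.25) and S3 (2.91), and H2-Ob in Ptpn11D61Y/+ (3.00, adjusted p = 0.0476). The median over the 10 genes was 3.10, 4.68 and 3.09 and the median over all genes was -0.34, -0.08 and 0.02. Since a fraction is a bulk sample, more class II cells and more RNA per cell cannot be told apart.

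Scaling by library size alone in place of TMM moved the median of all genes by -1.15, -0.51 and -0.61 in these 3 comparisons, and 6, 9 and 6 members were then called, all of them higher, against 8.87%, 6.54% and 8.85% of all genes called higher. Leaving out single libraries moved the count of members and the share of all genes called in either direction, which was 41.6%, 18.1% and 27.4% with all libraries. Both rose in S3 without the spleen library of animal 640, to 9 members and 34.4% of all genes. Both fell in the cases given next. In MxCre 2 members were called without LSK replicate 1 (19.4% of all genes) and 3 without LSK replicate 2 (20.3%). In Ptpn11D61Y/+ 5 were called without LSK replicate 1 (4.49%), 5 without LSK replicate 2 (4.53%) and 6 without spleen replicate 2 (5.76%), and in S3 5 without the spleen library of animal 815 (18.3%). Without the libraries that held both Xist and Ddx3y, 6 members were called in S3, against 19.8% of all genes. With animal as a replicate block and the libraries of number 540 left out, an alternative chosen after seeing the data, 0 of the 8 calls in S3 were left, against 10.2% of all genes, while the median over the members was 2.69.

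Fewer members were called against LSK cells in BM CD11b+ than in spleen CD11b+ cells. The direct comparison of spleen and BM, given below, called none in the fit of all groups. Cd74 (2.32 ± 0.79, adjusted p = 0.0311) and H2-DMb1 (2.11 ± 0.71, 0.031) were called higher in MxCre, which is 2 of 10 members against 16.6% of all genes. In Ptpn11D61Y/+ mice 5 were called higher, against 10.8% of all genes. These were H2-DMb2 (5.25 ± 1.14, adjusted p = 0.00518), H2-Eb1 (2.95), H2-Aa (2.85), Cd74 (2.81) and H2-Ab1 (2.72). In S3 mice H2-DMb2 alone was called (2.62 ± 0.82, adjusted p = 0.0277), 1 of 10 against 14.4%, and it was not called without the libraries that held both Xist and Ddx3y (adjusted p = 0.0724). In these edgeR fits of all groups no member was called lower, and Ciita had the lowest value in MxCre (-2.23 ± 0.86, adjusted p = 0.0524). Ciita was called lower in MxCre by DESeq2 (-2.26, adjusted p = 0.0217), which called 5 members against 46.9% of all genes, and in S3 by edgeR without the BM library of animal 640 (-2.91, adjusted p = 0.000642). An edgeR fit of the compared groups alone called Ciita (-2.22, adjusted p = 0.0335) and H2-DMb2 in MxCre, against 28.0% of all genes, and neither Cd74 nor H2-DMb1, so which members were called there depended on the fit. The count rested on single libraries, being 0 in MxCre without BM replicate 1 or without either LSK replicate (13.8% to 15% of all genes called), 0 in Ptpn11D61Y/+ without either LSK replicate (5.50% and 5.61%), 1 there without either BM replicate (5.50% and 6.97%), and 0 in S3 without the LSK library of any animal or the BM library of animal 540 (15.2% to 17.8%). The median over the members was 0.19 without BM MxCre replicate 1, against 1.30 with all libraries, and 5 in place of 7 members were higher. It was 1.13 and 1.40 without LSK MxCre replicate 1 or 2. In Ptpn11D61Y/+ it was 1.90 and 2.57 without LSK replicate 1 or 2, against 2.19. With library size alone, which moved the median of all genes by -1.05, -0.89 and -0.56, the called members were Ciita in MxCre, lower at -3.28 (46.0% of all genes called), and H2-DMb2 in Ptpn11D61Y/+, higher at 4.38 (25.8%). With animal as a replicate block and the libraries of number 540 left out, 0 members were called in S3, against 13.1% of all genes, at a median of 1.09 over the members against 0.76 before. BM MxCre replicate 1 was also the library with the most RNA of macrophages, with a summed level of 17130 CPM over 11 markers against 597.6 CPM in replicate 2, and C1qa as its most abundant one at 6283 CPM. The part of those cells in the result was not tested.

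Between the spleen and the BM, all 10 genes had a higher mean in the spleen in each genotype, and none was called by edgeR's test in the fit of all groups. Of all genes 0.915%, 3.69% and 0.0563% were called in MxCre, Ptpn11D61Y/+ and S3, and an unadjusted p under 0.05 was reached by 6, 8 and 10 members, against 19.8%, 19.9% and 9.77% of all genes. The median log2 fold change of the members was 1.80, 2.39 and 2.39 and that of all genes was 0, 0.03 and 0.09. In Ptpn11D61Y/+ mice both spleen libraries were above both BM libraries for 10 of 10 members, as they were for 32.2% of all genes, and in MxCre mice for 8, against 18.1%. In S3 mice the groups overlapped for every member because of animal 640. The libraries numbered 540 and 815 had more RNA in the spleen for 10 of 10 genes, with a median log2 difference of 2.77 and 3.95, and those of animal 640 had more in the BM for 10 of 10 (median -0.47, from -0.05 for Ciita to -2.42 for H2-Ob). Both CD11b+ libraries of number 540 hold Xist and Ddx3y, so its difference may not be one within a mouse. Without the spleen library of animal 640 the test called 8 members, against 1.16% of all genes, with log2 fold changes of 3.38 for H2-DMb2 (adjusted p = 0.00254), 2.84 for Cd74 and 2.21 for H2-DMa. Without its BM library it called 3, H2-Aa, H2-Eb1 and Ciita, against 2.39%, and DESeq2 on all libraries called 7, against 2.84%, as well as 1 in MxCre (10.9%) and 6 in Ptpn11D61Y/+ mice (13.2%). An edgeR fit of the compared groups alone called 10 of 10 members in Ptpn11D61Y/+ mice, against 26.3% of all genes, and 0 in MxCre and in S3 mice. The deviations of both CD11b+ libraries of an animal from their group means correlated at 0.108, 0.407 and 0.333, and the fit with animal as a replicate block called 0. The 9 erythroid markers were lower in sum in the spleen, except in animal 640. They summed to 50049 and 223609 CPM in BM and 3424 and 1152 CPM in spleen of MxCre mice. In Ptpn11D61Y/+ these sums were 161599 and 162026 against 5162 and 1150 CPM. In animals 540, 640 and 815 they were 68173, 14787 and 124815 against 14599, 29074 and 15919 CPM. Their part in the class II values was not tested.

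**Figure D3:**
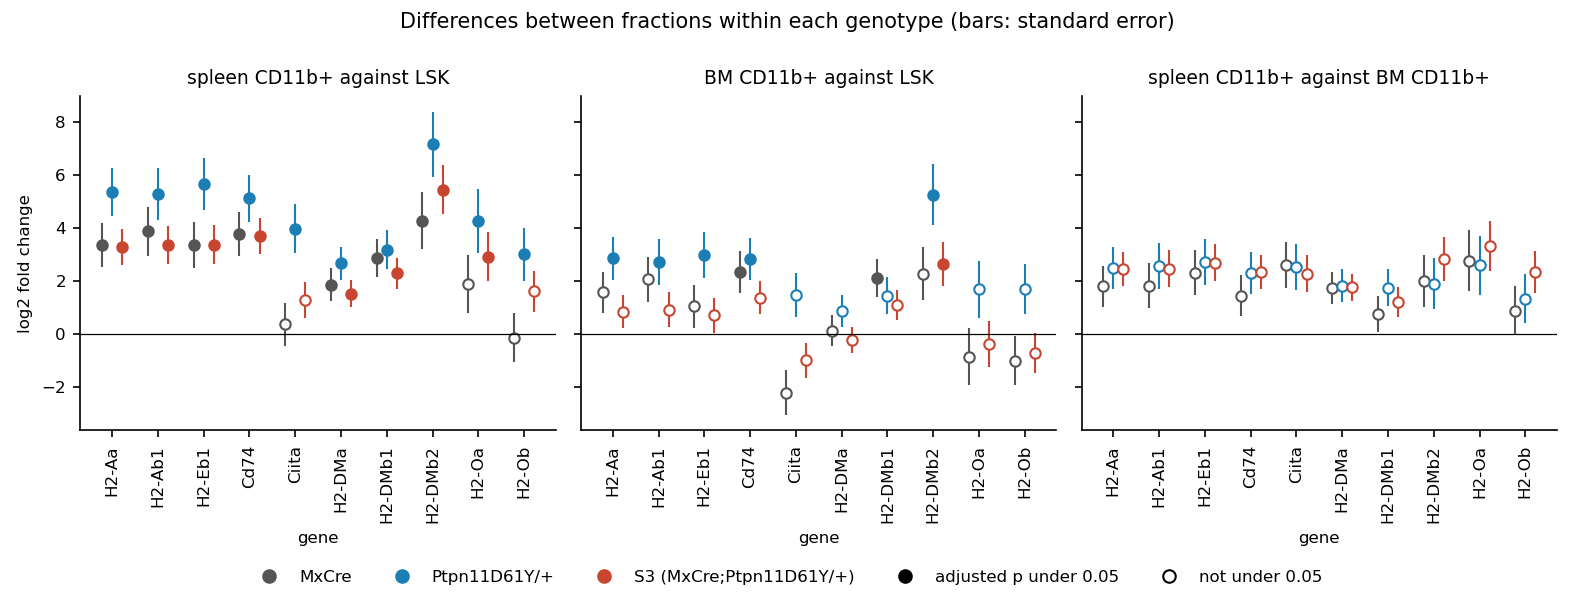
Log2 fold change of each class II gene (y axis, bars for the standard error) between fractions, within MxCre, Ptpn11D61Y/+ and S3 mice. Filled points passed an adjusted p of 0.05 and open points did not. In spleen CD11b+ against LSK cells 7, 10 and 8 points are filled, and in spleen against BM all points lie above 0 and none is filled.

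The comparison of genotypes within a fraction asks whether the disease or the silent allele changes the family, and no member was called in any of the 9 comparisons by edgeR's test in the fit of all groups. In the spleen this stands against 4.19% of all genes called for S3 against MxCre, 5.11% for Ptpn11D61Y/+ against MxCre and 0.00511% for S3 against Ptpn11D61Y/+. In the BM 0% of genes were called in each of the 3 comparisons, and in LSK cells 0.0307% for S3 against MxCre, 0.0972% for S3 against Ptpn11D61Y/+ and 0.0614% for Ptpn11D61Y/+ against MxCre. At an unadjusted p under 0.05 the spleen had 1 member for S3 against MxCre (25.3% of all genes), 2 for Ptpn11D61Y/+ against MxCre (24.7%) and 0 for S3 against Ptpn11D61Y/+ (8.88%). The BM had 1 (15.5%), 2 (22.6%) and 1 (8.22%) in the same order. LSK cells had 0 (3.97%), 0 (1.69%) and 3 (5.74%). DESeq2 called Ciita for Ptpn11D61Y/+ against MxCre in BM and spleen, against 9.61% and 17.4% of all genes, and 0 members in the other comparisons. A member's range within the S3 spleen group had a median of 3.14 log2 units over the 10 genes, and without the library of animal 640 no member was called in the spleen for S3 against MxCre or against Ptpn11D61Y/+ either.

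Ciita came closest to a call. By edgeR's test it was 2.93 ± 0.88 higher on the log2 scale in spleen of Ptpn11D61Y/+ than of MxCre mice (adjusted p = 0.062). In S3 it was 2.01 ± 0.80 higher than in MxCre (adjusted p = 0.141). No Ptpn11D61Y/+ or S3 library overlapped the MxCre libraries. Of all genes 34.5% lay above MxCre in this way in Ptpn11D61Y/+, and the share for S3 was not computed. The adjusted p of the first comparison was 0.00766 in DESeq2, 0.0222 in limma-voom, 0.0445 with library size alone, 0.0427 in a fit of these groups alone and 0.0243 with the replicate block, and up to 0.268 when single libraries were left out. In the BM the difference was 2.99 ± 0.89 for Ptpn11D61Y/+ against MxCre (adjusted p = 0.164, and 0.0198 in DESeq2 and 0.0336 with the replicate block). For S3 against MxCre in the BM it was 2.32 ± 0.82 (adjusted p = 0.239). This value rested largely on animal 640, at 48.1 CPM. Animals 540 and 815 were at 5.52 and 4.93 CPM, against 4.07 and 3.76 CPM in MxCre. The other members had smaller values in the spleen of S3 against MxCre, from -0.03 ± 0.55 for H2-DMa to 1.30 ± 0.88 for H2-Ob, with a median over the 10 genes of 0.73 against 0.32 over all genes. Of the 10 genes 9 had a positive value there, 10 without the library of animal 640, 5 without that of animal 815, 5 in limma-voom and 2 with MxCre and Ptpn11D61Y/+ pooled as controls, so no direction is given for the family. In the BM 5 of 10 had a positive value for S3 against MxCre, 1 without the library of animal 640, 7 without MxCre replicate 1 or without animal 815, 4 without MxCre replicate 2 or without animal 540, and 2 with pooled controls, so no direction is given there either. Library size alone moved the median of all genes by 0.38 in that comparison, so the signs under that scaling are not read.

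The libraries of Ptpn11D61Y/+ and MxCre mice were ordered in opposite ways in the spleen and in LSK cells. In the spleen both Ptpn11D61Y/+ libraries were above both MxCre libraries for 7 genes, H2-Aa, H2-Eb1, Cd74, Ciita, H2-DMb2, H2-Oa and H2-Ob, where 34.5% of all genes showed the same separation. Neutrophil transcripts differed between these libraries too. The 10 neutrophil markers summed to 4657 and 8720 CPM in the spleen of Ptpn11D61Y/+ mice, against 70756 and 134317 CPM in MxCre and 94599, 41500 and 43652 CPM in S3 animals 540, 640 and 815. S100a9 was the most abundant of them, and Ngp in animal 640, and none was at 0. Of these 10 markers 7 were called lower in Ptpn11D61Y/+ than in MxCre, against 5.11% of all genes called in either direction. Their part in the class II values was not tested. In LSK cells both Ptpn11D61Y/+ libraries were below both MxCre libraries for 8 genes, all but H2-DMb1 and H2-Oa, against 29.4% of all genes. Marker sums of other cells were also lower there. The 10 neutrophil markers summed to 413.3 and 341.1 CPM in LSK cells of Ptpn11D61Y/+ mice against 3047 and 2577 CPM in MxCre. Csf3r and S100a9 were the most abundant, respectively, and 5 of 10 were called lower, against 0.0614% of all genes called in either direction. The 9 erythroid markers summed to 95.0 and 68.3 CPM against 1544 and 843.5 CPM, the 11 macrophage markers to 72.5 and 72.9 CPM against 149.9 and 164.3 CPM, and the 11 dendritic markers to 276.5 and 353.4 CPM against 493.9 and 547.5 CPM, with none called. The 13 B cell markers were higher in sum, at 22830 and 20772 CPM against 11030 and 5218 CPM, with none called. Ighm alone made up nearly all of these sums, at 22747 and 20644 CPM against 10836 and 5091 CPM. They therefore do not speak for the other B cell markers. None of these markers was at 0 in these libraries, and their part in the class II values was not tested. In the BM both Ptpn11D61Y/+ libraries were above both MxCre libraries for 6 genes, Ciita, H2-Eb1, H2-DMa, H2-DMb2, H2-Oa and H2-Ob, against 38.7%, and 5 of these, all but H2-DMa, were among the 7 of the spleen. The 13 B cell markers summed to 5945 and 9582 CPM in these BM libraries against 1419 and 3932 CPM in MxCre, and none was at 0. Ighm was the most abundant, at 4123 and 7103 CPM against 1067 and 2662 CPM. Other lists were lower in sum. The 11 dendritic markers summed to 249.9 and 241.5 CPM against 769.4 and 548.8 CPM, with Bst2 the most abundant. The 7 markers of eosinophils and basophils summed to 472.5 and 417.8 against 1000 and 1392 CPM, and the 11 macrophage markers to 562.1 and 589.5 against 17130 and 597.6 CPM. No marker of these lists was called, and their part was not tested. H2-DMb2 had the largest difference in LSK cells, -1.39 ± 0.97 (adjusted p of 1 over all genes). The difference between the spleen and the LSK effect was tested as an interaction, a contrast added after the values had been seen, and no member passed in the edgeR fit of all groups or in DESeq2, with 0% of all genes called in that edgeR fit and 2 members at an unadjusted p under 0.05, against 11.7% of all genes. The largest values in the fit of all groups were 3.61 ± 1.19 for Ciita (adjusted p = 0.28), 3.15 ± 1.34 for H2-Ob (0.38) and 2.88 ± 1.37 for H2-DMb2 (0.428). An edgeR fit of the compared groups alone called 2 members, Ciita and H2-Ob, against 2.78% of all genes. Ptpn11D61Y/+ against MxCre also gave 0 members between spleen and BM (0% of genes) and between BM and LSK cells (0.0358%). The same interactions for S3 against MxCre gave 0 members as well, with 0.00511% of genes called between spleen and LSK cells and 0% in both others.

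In LSK cells several members were highest in S3 mice, although none was called. Every S3 library was above both MxCre libraries for 5 genes, H2-Aa, H2-Ab1, Ciita, H2-DMa and H2-DMb1, as for 29.1% of all genes, and above both Ptpn11D61Y/+ libraries for 8, against 32.0%. Against Ptpn11D61Y/+ the log2 fold changes were 1.79 ± 0.79 for Ciita, 1.66 ± 0.78 for H2-Eb1 and 1.58 ± 0.79 for H2-Ab1, with adjusted p from 0.82 to 0.921. In a fit of these groups alone 3 members passed, Ciita, H2-DMb1 and H2-DMb2, against 29.2% of all genes, and in that of S3 and MxCre H2-DMb1 passed, against 26.8%. Against MxCre, H2-Ob was at -0.46 ± 0.84, with all S3 libraries below both MxCre libraries, and H2-DMb2 was at -0.33 ± 0.86, with libraries that overlapped. Marker transcripts were also at other levels in these LSK libraries of S3 mice. The 7 markers of eosinophils and basophils summed to 835.7, 628.1 and 495.8 CPM in S3 animals 540, 768 and 815, with Mcpt8 the most abundant in the first and Prg2 in both others, against 89.9 and 74.7 CPM in MxCre and 124.3 and 156.8 CPM in Ptpn11D61Y/+. The 9 markers of stem and progenitor cells summed to 1327, 1170 and 1181 CPM in S3, with Cd34 the most abundant, against 1577 and 1606 CPM in MxCre and 1796 and 1855 CPM in Ptpn11D61Y/+. None of these markers was called between genotypes. The 11 macrophage markers summed to 189.7, 187.1 and 163.3 CPM in S3, with Vcam1 the most abundant in animal 540 and Cd68 in both others, against the 149.9 and 164.3 CPM of MxCre and 72.5 and 72.9 CPM of Ptpn11D61Y/+. The 11 dendritic markers summed to 405.1, 444.0 and 514.0 CPM in S3, above Ptpn11D61Y/+ and overlapping MxCre. Flt3, the most abundant of them, was at 235.8, 181.6 and 253.6 CPM in S3 against 374.7 and 412.2 CPM in MxCre. The overlap rests on Flt3, and the other dendritic markers together were higher in each S3 library than in any library of both other genotypes. No marker of the macrophage or dendritic list was called in S3 against the others. The 10 neutrophil markers summed to 797.0, 1063 and 1581 CPM, with S100a9 the most abundant, above Ptpn11D61Y/+ and below MxCre. Of them 2 were called lower than in MxCre, against 0.0307% of all genes called in either direction. None of the markers of these lists was at 0 in an LSK library, and their part in the class II values was not tested.

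**Figure D4:**
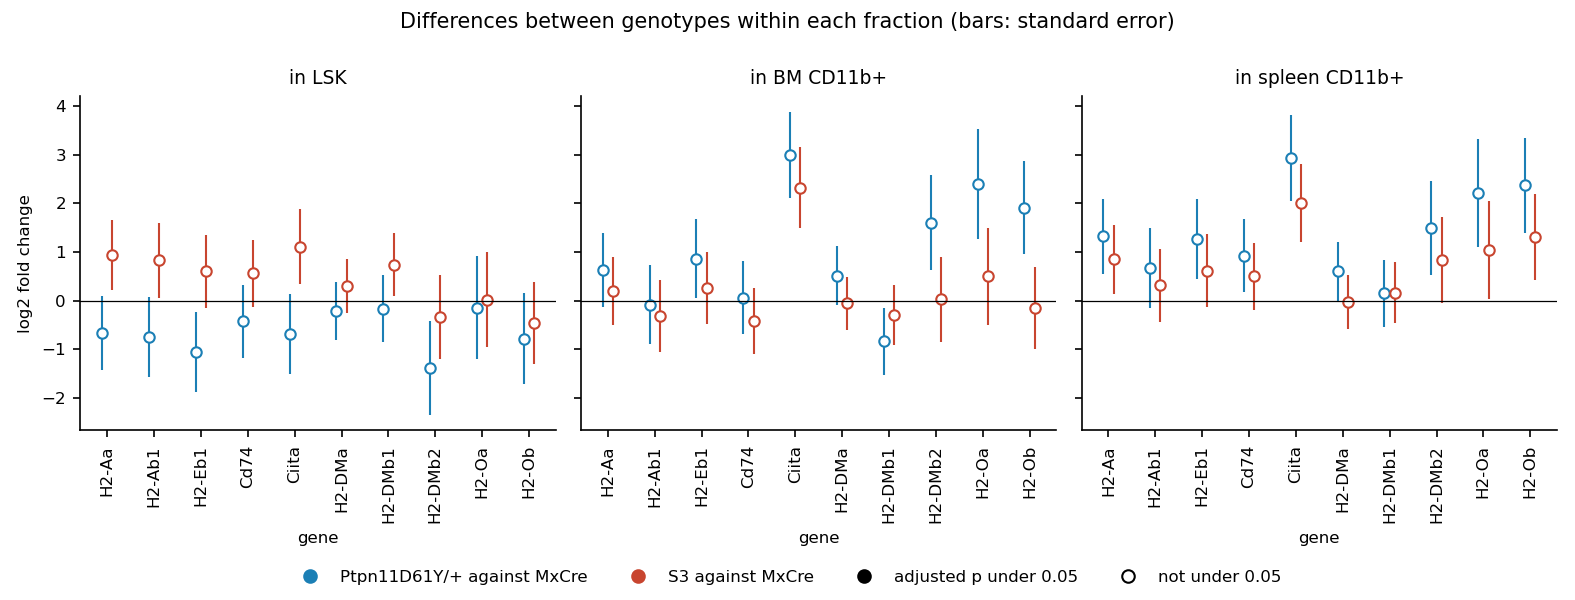
Log2 fold change of each class II gene (y axis, bars for the standard error) for Ptpn11D61Y/+ against MxCre and S3 against MxCre in LSK, BM CD11b+ and spleen CD11b+ cells. All points are open, since no adjusted p was under 0.05. Ciita lies highest in the BM and spleen panels, at 2.99 and 2.93 for Ptpn11D61Y/+ and 2.32 and 2.01 for S3. The 2.32 for S3 in the BM rests largely on the library of animal 640.

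Ciita joins RFX, NF-Y and CREB proteins, whose genes are expressed widely. Of the 7 genes for RFX, NF-Y and CREB1, 1 was called higher and 2 lower in spleen against LSK cells of MxCre mice, 0 and 1 in Ptpn11D61Y/+ and 0 and 1 in S3, beside 41.6%, 18.1% and 27.4% of all genes called in either direction, and the median over the 7 was between 0.05 and 0.12. Rfx5, the DNA-binding chain of RFX, was at 38.1 and 38.4 CPM in LSK cells of MxCre mice but at 2.92 and 3.79 CPM in their spleen CD11b+ cells, a fall by 3.51 ± 0.74 on the log2 scale (adjusted p = 0.00231). It was at 25.6 and 15.7 CPM in the spleen of Ptpn11D61Y/+ mice, 2.62 ± 0.71 above MxCre (adjusted p = 0.0447), and at 14.0, 11.9 and 8.95 CPM in S3 mice (1.79 ± 0.66, adjusted p = 0.113). Rfx5 was thus the RFX gene with the spleen order of Ciita, lowest in both MxCre libraries and highest in Ptpn11D61Y/+ ones. Rfxap rose by 1.61 ± 0.38 in spleen against LSK cells of MxCre mice, and Rfxank, between 6.45 and 17.9 CPM in every library, was called in no comparison. Nfya, a chain of NF-Y, fell in all 3 genotypes in spleen against LSK cells, by 1.36, 1.12 and 1.38.

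Upstream of Ciita, 8 of 13 listed genes were called higher and 0 lower in spleen against LSK cells of each genotype, beside 19.2%, 10.4% and 15.8% of all genes called higher. The list held genes for interferon-gamma signalling and lineage factors, and also Socs1, Il10ra and Prdm1. The count is therefore not read as one of activators. Spi1, which encodes the myeloid factor PU.1, rose by 3.43 ± 0.53, 2.86 ± 0.52 and 2.29 ± 0.42 in MxCre, Ptpn11D61Y/+ and S3. Ifng rose by 4.95, 7.14 and 2.26, from at most 0.486 CPM in LSK cells to between 0.884 and 12.9 CPM in the spleen. Irf8 was called in Ptpn11D61Y/+ (2.39 ± 0.54), and in LSK cells it was at 166.4, 357.2 and 387.5 CPM in S3 against 89.3 and 92.9 CPM in MxCre (1.74 ± 0.50, adjusted p = 0.654). Between genotypes in the spleen, 1 of the 13 fell for S3 against MxCre and for Ptpn11D61Y/+ against MxCre, Irf1 at -2.64 and -2.35, beside 4.19% and 5.11% of all genes called.

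Genes around the pathway were also compared between spleen CD11b+ and LSK cells. Of 12 genes for the endosomal processing of peptide and Cd74, 10, 9 and 9 were called higher in spleen against LSK cells of MxCre, Ptpn11D61Y/+ and S3 mice and 0 lower. Lgmn, an endosomal protease, rose by 5.01, 5.32 and 4.92, Ctss, the cathepsin that trims Cd74, by 3.93, 4.66 and 3.95, and Ifi30, a reductase of antigen, by 4.28, 5.80 and 4.03. March1, a ligase that removes class II from the surface, rose by 4.18, 5.49 and 2.82. In LSK cells March1 was also higher in S3 than in Ptpn11D61Y/+ mice (2.77 ± 0.39, adjusted p = 0.0171), with 6.94, 9.62 and 14.8 CPM against 1.51 and 1.56 CPM. Of 7 costimulatory and related genes 6, 5 and 6 were called higher, among them Cd86 at 4.66, 5.06 and 3.04 and Ccr7 at 5.75, 7.98 and 4.91. Of the 12 class I genes 6, 1 and 4 were called higher and 1, 0 and 1 lower, beside 19.2%, 10.4% and 15.8% of all genes called higher. Nlrc5, the class I counterpart of Ciita, was the one that fell, by 1.62 in MxCre and 1.26 in S3. Cd74 also serves as a receptor for the cytokine Mif, and of its 5 listed partners there, Cxcr4 and Cd44 fell in the spleen of S3 against MxCre, by 2.59 and 1.86, and Cxcr2, Cxcr4 and Cd44 in Ptpn11D61Y/+ against MxCre, by 3.26, 2.17 and 1.97. Of all genes 4.19% and 5.11% were called in these comparisons.

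Transcripts of other class II cells moved with several of these values. The 13 B cell markers summed to 2592 and 562.2 CPM in the spleen of MxCre mice, 21685 and 8399 CPM in Ptpn11D61Y/+ and 4532, 785.4 and 2619 CPM in S3 animals 540, 640 and 815, with Ighm the most abundant in every library. Ighm alone was at 19237.5 and 5243 CPM in Ptpn11D61Y/+, so these sums rest largely on it. In spleen Ptpn11D61Y/+ against MxCre, 3 of the 13 were called higher, among them Cr2 (4.30) and Cd79b (2.75), and 13 had a positive value. Of all genes 5.11% were called there in either direction, and 55.9% had a positive value. In spleen against LSK cells, 12 of 13 were called higher in Ptpn11D61Y/+, 11 in S3 and 0 in MxCre, where 7 class II genes were called, and 0, 1 and 1 lower. The shares of all genes called higher were 10.4%, 15.8% and 19.2% in the same order. Cd79a, part of the B cell receptor, was at 62.3 and 25.8 CPM in the spleen of MxCre mice, 442.7 and 761.7 CPM in Ptpn11D61Y/+ and 304.2, 8.08 and 235.4 CPM in S3. Within the S3 spleen group the library of animal 640 was the lowest for Cd79a and for each class II gene, whereas both spleen MxCre libraries lay below it for Ciita. No B cell marker was at a count of 0 in any library, and the part of B cells in the class II values was not tested.

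The 11 dendritic cell markers summed to 990.04 and 641.0 CPM in the spleen of MxCre mice, 750.3 and 1084 CPM in Ptpn11D61Y/+ and 957.8, 676.2 and 2078 CPM in S3. None was called between genotypes in the spleen. Against LSK cells 3, 4 and 4 were called higher and 1, 0 and 0 lower in MxCre, Ptpn11D61Y/+ and S3. Of all genes 19.2%, 10.4% and 15.8% were called higher there. Batf3 was at 6.43, 6.63 and 4.69 and Itgax, which encodes CD11c, at 4.02, 5.50 and 3.59. Itgax was at 550.9 CPM in the spleen library of animal 640 and within the range of 290.6 to 649.2 CPM of the others. The other 10 dendritic markers together were lower there than in any other spleen library, at 125.3 CPM against 666.5 and 350.4 CPM in MxCre, 421.6 and 641.6 CPM in Ptpn11D61Y/+ and 503.6 and 1429 CPM in S3 animals 540 and 815. Over the 7 spleen libraries Itgax correlated with the mean log2 CPM of H2-Aa, H2-Ab1, H2-Eb1 and Cd74 at 0.112. The other 10 dendritic markers ran from 0.325 for Xcr1 and 0.603 for Siglech to 0.939 for Cd209a, 0.940 for Flt3 and 0.975 for Dpp4. B cell markers ran from 0.581 for Ighm to 0.913 for Cd79a. High values were not particular to these lists, with 0.907 for Ly6a, 0.880 for Kit and 0.840 for Cd5. Itgam was at -0.834 and Csf1r at -0.827. The BM library of animal 640 held 343.8 CPM of Itgax, above the 16.1 to 125.4 CPM of the other BM libraries. Its neutrophil markers summed to 28894 CPM against 99394 to 142928 CPM in those. Siglech, a marker of plasmacytoid dendritic cells, was at 0 in BM MxCre replicate 1, the one defining dendritic marker at 0 in any library. The part of these cells was not tested.

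**Figure D5:**
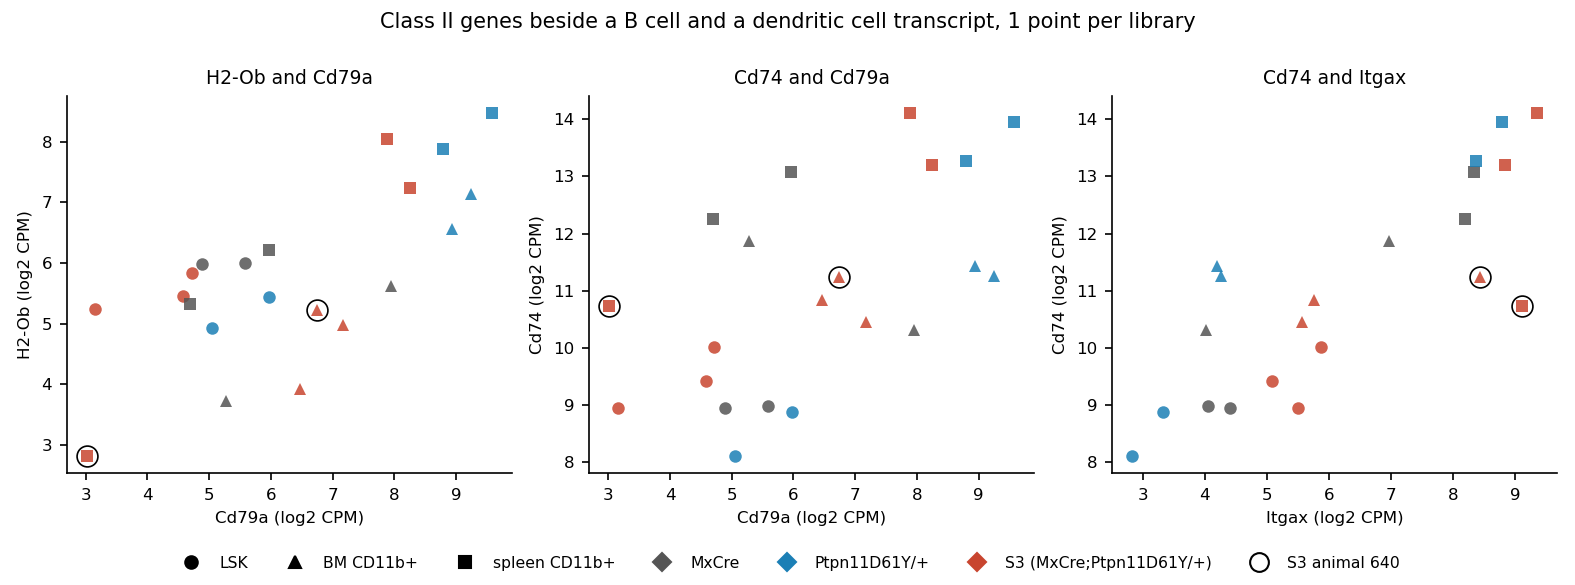
Level of H2-Ob or Cd74 (y axis, log2 CPM) against the B cell transcript Cd79a or the dendritic cell transcript Itgax (x axis, log2 CPM), with 1 point per library, shapes for fractions, colours for genotypes and rings for the 2 libraries of S3 animal 640. The ringed spleen library is lowest for both H2-Ob (7.01 CPM) and Cd79a (8.08 CPM), and lies at 550.9 CPM of Itgax, which is 1 of 11 dendritic markers, while the other 10 sum to 125.3 CPM there.

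The members differed in how closely they kept together. Over the 21 libraries, which share the 3 fractions and so their large differences, the correlation with the mean log2 CPM of H2-Aa, H2-Ab1, H2-Eb1 and Cd74 was 0.932 for H2-DMb1, 0.916 for H2-DMb2, 0.909 for H2-DMa, 0.701 for H2-Oa, 0.634 for Ciita and 0.568 for H2-Ob. In the 7 BM libraries alone it was 0.804 for H2-DMa and 0.626 for Ciita, but 0.125 for H2-DMb2, 0.124 for H2-Ob and 0.0264 for H2-Oa. In the 7 LSK libraries Ciita kept to the chains (0.971), and in the 7 spleen libraries H2-DMb2, H2-Ob and H2-Oa did (0.983, 0.972 and 0.962), with Ciita at 0.603. The genes outside the family closest to that mean over 21 libraries were Pip4k2a (0.961), Il4i1 (0.956), Plekho1 (0.950), Otulinl (0.942), Relb (0.939), Gm2a (0.934), Cyp27a1 (0.931), Pepd (0.930), Fam174a (0.929) and Cd86 (0.928), among 8764 genes whose log2 CPM averaged 3 or more. Over the 7 spleen libraries they were Prss30 (0.992), Rcn3 (0.989), Tspan9 (0.988), Ttc5 (0.987), Mapk11 (0.987), Nipsnap1 (0.985), St14 (0.982), H2-T10 (0.981), Cisd3 (0.981) and Pkp3 (0.981), and no gene was in both lists. Within the other fractions the closest genes were Fam129a in LSK cells (0.972) and Cwc25 in the BM (0.989). These are descriptions of a few libraries, in which animal 640 sets much of the spread in the spleen.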

How the data were processed

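The deposited files hold raw counts per Ensembl gene, 1 table for each of 21 libraries, without normalization. By the submitters' notes the authors trimmed reads with Trim Galore 0.6.5 and aligned them to mm10 with STAR 2.5.3a. The counting program, annotation and use of strand are not given in the sources used here, which could shift genes with overlapping exons or close copies. Identifiers were matched to symbols for 45143 of 45706 genes, and positions and exon lengths came from GENCODE M21 (GRCm38). With edgeR 4.0.16 in R 4.3.3, filterByExpr (minimum count 10, minimum total 15) over 9 groups left 19555 genes, which held 99.99% of counts. A robust quasi-likelihood fit with TMM factors and 1 coefficient per group used 21 libraries, which left 12 degrees of freedom. A call is an adjusted p (Benjamini-Hochberg, all tested genes) under 0.05, and levels are TMM-scaled CPM, or log2 CPM with a prior count of 2. Named were all 10 members, the called genes of each pathway list by size, the regulators Ciita, Rfx5, Rfxap, Rfxank, Irf8, Spi1 and Ifng, and the 10 genes most alike. The members and gene lists were chosen with earlier results of these data known. Alternatives were DESeq2 1.42.0, limma-voom (limma 3.58.1), other scaling, no filter, fits of the compared groups, pooled controls, a replicate block and leaving out each library. Animals 540, 640 and 815 link spleen and BM libraries by their labels, and the pairs' deviations correlated at 0.108, 0.333 and 0.407. Some genes of the lists are not reported here.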

Additional observations from a re-analysis of the deposited data

How the results depend on the processing

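No called member changed direction under any alternative run. The counts of called members, out of 10, moved as follows, with the share of all genes called in the same fit in brackets. Leaving out one library gave 0 to 8 (0% to 2.39%) for spleen against BM in S3, where all libraries gave 0. For spleen against LSK it gave 2 to 7 (19.4% to 29.2%) in MxCre in place of 7, 5 to 9 (4.49% to 8.04%) in Ptpn11D61Y/+ in place of 10 and 5 to 9 (15.4% to 34.4%) in S3 in place of 8. For BM against LSK it gave 0 to 3 (13.8% to 33.5%) in MxCre in place of 2, 0 to 1 (5.50% to 6.97%) in Ptpn11D61Y/+ in place of 5 and 0 to 2 (15.2% to 37.0%) in S3 in place of 1, and it gave 0 in all other comparisons. DESeq2 gave 1 (10.9%), 6 (13.2%) and 7 (2.84%) for spleen against BM in MxCre, Ptpn11D61Y/+ and S3, 5 (46.9%) for BM against LSK in MxCre, and 1 each for Ptpn11D61Y/+ against MxCre in BM (9.61%) and spleen (17.4%). Limma-voom gave 1 (8.65%) for that spleen comparison, 1 (5.56%) for spleen against BM in Ptpn11D61Y/+, and 1 (40.1%) and 0 (31.05%) for BM against LSK in MxCre and S3. Library size alone gave 1 (8.73%) for Ptpn11D61Y/+ against MxCre in the spleen, and 1 (46.0%), 1 (25.8%) and 0 (29.4%) for BM against LSK in MxCre, Ptpn11D61Y/+ and S3. A fit of only the groups compared gave 1 (26.8%), 3 (29.2%) and 1 (14.2%) for S3 against MxCre, S3 against Ptpn11D61Y/+ and Ptpn11D61Y/+ against MxCre in LSK, 1 (1.74%) for Ptpn11D61Y/+ against MxCre in the spleen, 10 (26.3%) for spleen against BM and 10 (71.3%) for BM against LSK in Ptpn11D61Y/+, 2 (23.1%) for BM against LSK in S3 and 2 (2.78%) for the Ptpn11D61Y/+ interaction between spleen and LSK. For BM against LSK in MxCre it gave 2 (28.0%), Ciita and H2-DMb2, in place of Cd74 and H2-DMb1. No filter on low counts gave 0 (14.3%) for BM against LSK in S3. The replicate block gave 1 (4.23%) for Ptpn11D61Y/+ against MxCre in BM and 1 (6.42%) in spleen, where the groups share only a number, and moved no other count by more than 1.5 times. Chosen after seeing the data, the block without animal 540 gave 0 (10.2%) for spleen against LSK and 0 (13.1%) for BM against LSK in S3, with fewer libraries and medians over the members of 2.69 and 1.09. Leaving out the libraries with both Xist and Ddx3y gave 0 (19.9%) for BM against LSK in S3. The causes were not tested. Depth limits the value of H2-Oa in BM MxCre replicate 1 the most, which rests on 21 counts.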
